A study of Rattus norvegicus with 6 samples.

Results

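The annexins are a family of proteins that bind phospholipid membranes in the presence of calcium. The 10 annexin genes considered here were chosen by name, as members of the family listed with earlier results of these data in view. Of the 10, 9 were found on the array among 18166 named genes: Anxa1 to Anxa8 and Anxa11. Anxa9 had no probe set that carried its symbol alone and is not analysed here. A gene with several probe sets was to be represented by the brightest of them, averaged over all 6 arrays, but each of the 9 annexins had 1, so no measured value decided which probe set was used. The arrays were Affymetrix RaGene 2.0 ST, hybridised with RNA from epididymides of Sprague-Dawley rats aged 48 days. The tissue had been split with magnets, which gave one fraction of basal cells and one of the other, non-basal cells, and each fraction has 3 arrays. The submitters mention 3 rats but tie no array to an animal, so p-values here reflect the scatter among these 6 samples alone, and that scatter may be technical. No treatment, transgene or other factor separates the samples, and the surface molecule used for the separation is not given.

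Each annexin carries a conserved core of repeats that holds calcium between the protein and acidic phospholipids such as phosphatidylserine, and a variable amino-terminal head that binds partner proteins, often of the S100 family. Through these contacts annexins take part in membrane repair, in vesicle traffic, in the assembly of plasminogen at the cell surface and in the control of inflammation. The epididymis is the coiled duct in which sperm mature. Its epithelium has basal cells lying on the basement membrane and taller principal and clear cells facing the lumen, with smooth muscle, vessels, fibroblasts and leukocytes around or within it.

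Values are log2 RMA units, in which a difference of 1 is a doubling, and every difference is basal minus non-basal. The level of one probe set cannot be set against that of another, so annexins are compared between fractions and not with each other in level. The array medians lay between 6.63 and 6.70, and the number of arrays limits the precision. A gene is counted as higher or lower in the basal fraction at a limma adjusted p under 0.05. Of all genes, 7.71% were higher and 7.14% were lower. Of 17 measured markers of epithelial basal cells, 16 were higher in the basal fraction and 1, Ngfr, was lower. Mean levels of that list were 10.09 to 10.43 in the basal arrays and 7.66 to 8.34 in the non-basal arrays. All 15 fibroblast markers were lower, with list means of 8.03 to 9.43 in basal and 11.35 to 12.15 in non-basal arrays. Because each array holds RNA of mixed cells, fewer cells of a type and less RNA per cell cannot be told apart in any result below.

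Most annexin transcripts were more abundant in the basal fraction. Anxa8 rose most, by 3.06 on the log2 scale, and Anxa1, Anxa5, Anxa11, Anxa2, Anxa7 and Anxa3 rose by 1.05 to 0.52, whereas Anxa6 was lower at -0.98. Anxa4 had a difference of 0.44 and did not pass the test. With limma and Benjamini-Hochberg adjustment over all 18166 genes, 7 of the 9 annexins were called higher at an adjusted p under 0.05, where 7.71% of all genes were, and 1 was called lower, where 7.14% of all genes were. Together 8 of 9 were called, against 14.9% of all genes. Among the 1749 genes with a mean of at least 10, a level that 6 of the 9 annexins reached, 19.1% were higher and 9.03% lower. The fractions did not overlap for any of the 9 genes: basal values lay above in 8, as in 17.6% of all genes, and below in 1, as in 15.3% of all genes. The median difference was 0.73 over the 9 annexins and 0.00343 over all genes.

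**Figure D1:**
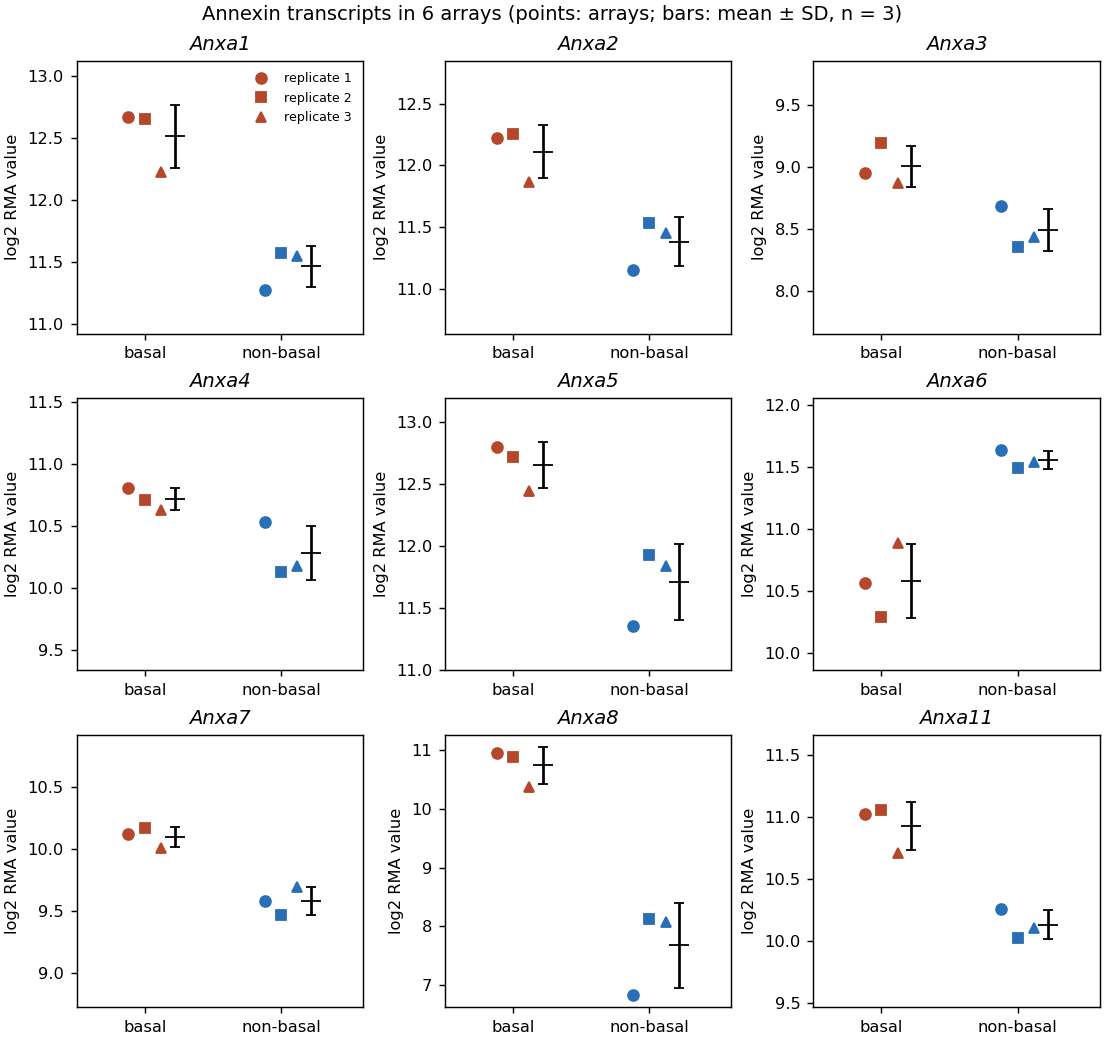
Log2 RMA values of the 9 measured annexins in each array, basal arrays left of non-basal arrays, with points for replicates and bars for mean and SD (n = 3). Each panel has its own vertical axis, and in all panels but that of Anxa6 the 3 basal points lie above the 3 non-basal points.

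**Figure D2:**
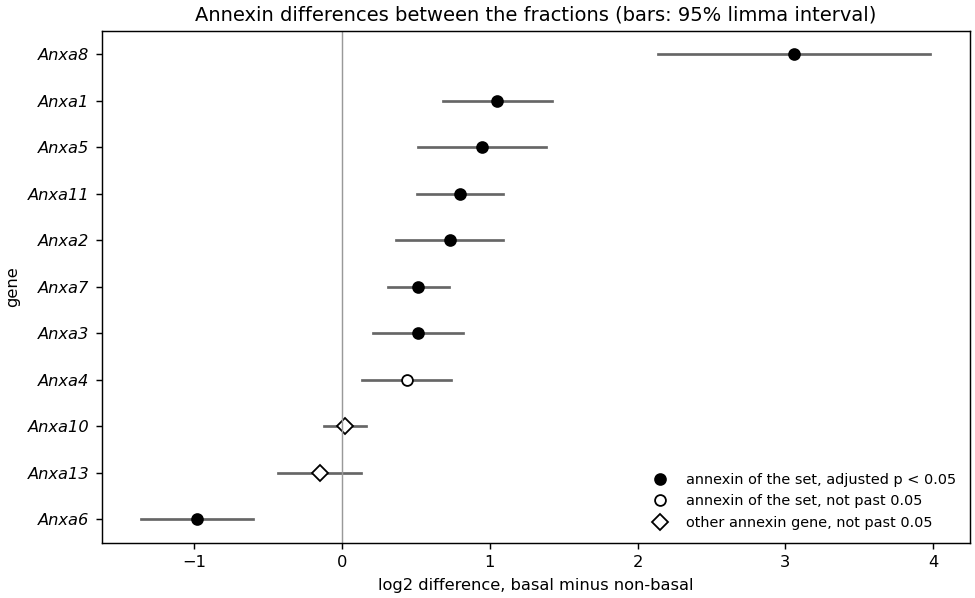
Log2 difference, basal minus non-basal, with its 95% limma interval, for the 9 measured annexins (circles) and for Anxa10 and Anxa13 (diamonds). Anxa8 stands at 3.06, 7 further annexins of the set lie between 0.44 and 1.05, and Anxa6 lies at -0.98.

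Anxa8 encodes annexin A8, a protein that takes part in the organisation of late endosomes and is found in stratified and glandular epithelia. Its values were 10.96, 10.88 and 10.38 in basal replicates 1 to 3, against 6.84, 8.13 and 8.07 in non-basal replicates 1 to 3. The lowest basal value stood more than 2 log2 units above the highest non-basal value, and non-basal replicate 1 was the lowest of all. The means were 10.74 ± 0.316 in basal and 7.68 ± 0.727 in non-basal arrays (SD, n = 3 each), a log2 difference of 3.06 ± 0.38 (SE; 95% interval 2.14 to 3.98; limma adjusted p = 0.00535). This is an 8.34-fold higher value and the ninth highest of the 18166 differences. Without non-basal replicate 1 the difference was 2.64, and it remained past the threshold when any single array was left out, with adjusted p of 0.00356 to 0.0391.

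The RefSeq promoter windows of the genes, 250 bases before to 50 after the annotated start in the GRCr8 assembly, were found for 9 of the 10 listed genes, Anxa9 included and Anxa6 not. They are shown here for Anxa8, which differed most, and for Anxa1 and Anxa2, the 2 that hold a TATA box. Capitals mark the TATA box (TATAAA) and the AP-1 site (TGANTCA), each searched on both strands; the 2 motifs do not overlap in these windows. The coordinates are chr16:9403137-9403436 on the plus strand for Anxa8, chr1:227303683-227303982 on the minus strand for Anxa1 and chr8:78986002-78986301 on the plus strand for Anxa2, and each sequence is written 5′ to 3′ along its gene.
Anxa8: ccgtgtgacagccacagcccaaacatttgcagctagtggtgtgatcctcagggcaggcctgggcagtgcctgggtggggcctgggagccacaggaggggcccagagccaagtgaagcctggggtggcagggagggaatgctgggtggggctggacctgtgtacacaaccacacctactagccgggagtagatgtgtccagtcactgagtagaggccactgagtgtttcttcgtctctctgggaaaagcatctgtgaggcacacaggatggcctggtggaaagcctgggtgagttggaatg
Anxa1: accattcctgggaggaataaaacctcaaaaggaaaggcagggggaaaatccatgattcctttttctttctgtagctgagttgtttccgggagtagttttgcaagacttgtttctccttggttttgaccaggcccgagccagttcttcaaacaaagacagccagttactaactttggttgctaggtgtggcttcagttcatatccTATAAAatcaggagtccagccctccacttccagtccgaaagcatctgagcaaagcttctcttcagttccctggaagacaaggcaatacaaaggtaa
Anxa2: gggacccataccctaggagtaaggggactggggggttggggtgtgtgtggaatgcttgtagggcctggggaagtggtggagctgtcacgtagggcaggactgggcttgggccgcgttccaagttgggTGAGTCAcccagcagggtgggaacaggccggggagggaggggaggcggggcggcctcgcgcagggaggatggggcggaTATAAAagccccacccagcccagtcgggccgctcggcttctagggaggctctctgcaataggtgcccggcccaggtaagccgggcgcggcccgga
The TATA box began 46 bases before the start in Anxa1 and 45 bases before it in Anxa2, and 14.2% of all 33469 windows of this length hold those letters. The AP-1 letters were found in 1 of the 9 annexin windows, that of Anxa2, 123 bases before the start, against 7.33% of all windows. The GC box (GGGCGG, both strands, not capitalised) was found in 6 of the 9 windows, against 33.1% of all windows, and not in those of Anxa8, Anxa1 and Anxa9. Such matches describe the letters and do not show that a factor binds there.

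Anxa1 encodes annexin A1, first known as lipocortin, a glucocorticoid-induced inhibitor of phospholipase A2 whose amino-terminal peptide is a ligand of formyl peptide receptors. It had 12.67, 12.65 and 12.22 in the basal arrays, against 11.28, 11.57 and 11.55 in the non-basal arrays. Basal replicate 3 was the lowest of its fraction and still 0.655 above the highest non-basal array. The difference was 1.05 ± 0.15 (SE), a 2.07-fold higher value (limma adjusted p = 0.00847). Anxa2 encodes annexin A2, which pairs with S100A10 and binds plasminogen and its activator tPA at the cell surface. It had 12.22, 12.25 and 11.86 in basal, against 11.16, 11.53 and 11.46 in non-basal arrays, and differed by 0.73 ± 0.15 (1.66-fold higher, limma adjusted p = 0.0259). The fractions were closer for Anxa2 than for Anxa1, with basal replicate 3 again the lowest basal array and non-basal replicate 1 the lowest non-basal array. RefSeq lists 1 Anxa2 pseudogene, and whether its transcripts reach the probe set was not tested.

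Anxa5 encodes annexin A5, which forms a lattice on exposed phosphatidylserine and is the common probe for dying cells. Its values were 12.80, 12.72 and 12.44 in the basal arrays and 11.35, 11.92 and 11.84 in the non-basal arrays. The difference was 0.95 ± 0.18, 1.93-fold higher (limma adjusted p = 0.0198), and non-basal replicate 1 lay lowest, as for Anxa1, Anxa2 and Anxa8. Anxa3, known for promoting the fusion of granules in neutrophils, had 8.96, 9.20 and 8.87 in the basal and 8.69, 8.36 and 8.44 in the non-basal arrays. The gap between the fractions was 0.188, the narrowest among the called annexins, and the difference of 0.52 ± 0.13 passed the threshold narrowly (limma adjusted p = 0.0444). Anxa4, an epithelial annexin that lowers the permeability of membranes and modulates ion channels, had 10.81, 10.71 and 10.63 in the basal and 10.53, 10.13 and 10.18 in the non-basal arrays. Its difference of 0.44 ± 0.12 had a 95% interval of 0.14 to 0.74 and a limma adjusted p of 0.0679. Non-basal replicate 1 was the highest of its fraction, and without it the difference was 0.56 (adjusted p = 0.0121).

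Anxa7 and Anxa11 encode annexins with long amino-terminal heads rich in glycine, tyrosine and proline. Annexin A7, or synexin, joins vesicle membranes, and annexin A11 binds the calcium sensor encoded by Pdcd6 and tethers RNA granules to lysosomes. Anxa7 had 10.12, 10.17 and 10.01 in the basal arrays, against 9.59, 9.47 and 9.70 in the non-basal arrays. The arrays of each fraction lay close together, with SDs of 0.0814 and 0.112 in basal and non-basal arrays, and the difference was 0.52 ± 0.085 (1.43-fold higher, limma adjusted p = 0.0127). RefSeq lists 4 pseudogenes of Anxa7, whose share in the signal was not tested. Anxa11 had 11.03, 11.05 and 10.71 in the basal arrays and 10.26, 10.03 and 10.11 in the non-basal arrays, a difference of 0.80 ± 0.12 (1.74-fold higher, limma adjusted p = 0.00937). For both genes the basal arrays lay wholly above the non-basal arrays, with basal replicate 3 the lowest of the basal ones.

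Anxa6 was the 1 annexin that was lower in the basal fraction. It encodes annexin A6, which has a duplicated core and is known for organising membrane domains and cholesterol-rich membranes and for calcium handling in muscle. Its values were 10.56, 10.29 and 10.89 in the basal arrays, against 11.64, 11.49 and 11.54 in the non-basal arrays. The non-basal arrays spanned little, with an SD of 0.0754 against 0.300 in the basal arrays, and basal replicate 3 was the basal array closest to them. The difference was -0.98 ± 0.16, a 1.97-fold lower value (95% interval -1.36 to -0.60; limma adjusted p = 0.0115). Most markers of mesenchymal and vascular cells and some of lymphocytes were lower too, where 7.14% of all genes were. Among 10 markers of smooth muscle and pericytes, 8 were lower, with list means of 8.20 to 8.89 in basal and 10.19 to 10.31 in non-basal arrays. Among 10 markers of endothelium, 9 were lower, with list means of 6.93 to 7.24 in basal and 8.32 to 8.54 in non-basal arrays. Among 16 lymphocyte markers, 7 were lower, with list means of 6.10 to 6.46 in basal and 7.17 to 7.95 in non-basal arrays. The other lists of non-basal cells were mostly not called. There 3 of 16 macrophage, 1 of 14 principal cell and 0 of 9 clear cell markers were lower. Basal replicate 3 had the highest basal mean of the smooth muscle, endothelial and lymphocyte lists and of the fibroblast list given above. The table has no detection calls, so no marker could be placed at 0, and the part of these cells in the Anxa6 difference was not tested.

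Other annexin genes on the array, outside the 10, did not differ detectably. Anxa10, an annexin of gastric epithelium, had 4.80 in all 3 basal arrays and 4.80, 4.74 and 4.80 in the non-basal arrays. Its mean lay at the percentile 9.67 of all gene means, and the difference was 0.020 (95% interval -0.12 to 0.16; limma adjusted p = 0.839). The sign turned to -0.062 after quantile normalization. Anxa13, an annexin of intestinal epithelium, had 5.97, 6.20 and 6.24 in the basal arrays and 6.42, 6.12 and 6.33 in the non-basal arrays, which overlap. Its difference was -0.15 (95% interval -0.43 to 0.13; limma adjusted p = 0.421).

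Within the basal fraction most annexins were lowest in the same array. Within the non-basal fraction replicate 1 was the lowest array for 4 annexins and the highest for 4. Basal replicate 3 was the lowest basal array for 8 of the 9 annexins and the highest for Anxa6. In that array the basal marker list was lowest, at 10.09 against 10.43 and 10.37 in the other basal arrays. The macrophage list was lowest there too, at 7.61 against 7.63 and 7.99. The principal cell list was highest there, at 11.07 against 10.18 and 10.54. So were the clear cell list, at 9.10 against 8.83 and 8.74, and the fibroblast, smooth muscle, endothelial and lymphocyte lists. In the non-basal fraction, replicate 1 was the lowest array for Anxa1, Anxa2, Anxa5 and Anxa8, by 0.84 below the fraction's mean for Anxa8 and 0.35 for Anxa5. The same array was the highest for Anxa3, Anxa4, Anxa6 and Anxa11, by 0.25 above the mean for Anxa4. The basal marker list was also lowest in non-basal replicate 1, at 7.66 against 8.34 and 8.34 in the other non-basal arrays. The principal cell list was highest there, at 11.17 against 10.89 and 10.87, and so was the clear cell list, at 9.46 against 8.86 and 8.98. The endothelial list was highest there too, at 8.54 against 8.32 and 8.41. The other lists were lowest in that array, as the basal list was: macrophage at 7.77 against 8.77 and 8.63, lymphocyte at 7.17 against 7.95 and 7.82, fibroblast at 11.35 against 12.15 and 12.02, and smooth muscle at 10.19 against 10.31 and 10.28. These groups of annexins were noticed after their values were seen, and their relation to the cell type lists was not tested.

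**Figure D3:**
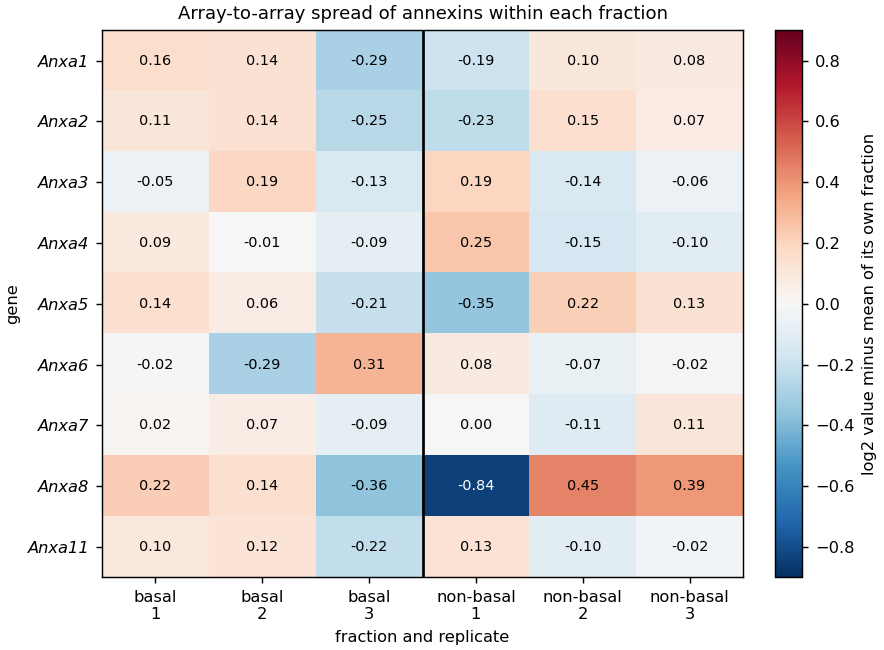
Log2 value of each annexin in each array minus the mean of that gene over its own fraction. Basal replicate 3 is below the mean in every row except Anxa6, and non-basal replicate 1 is below it for Anxa1, Anxa2, Anxa5 and Anxa8 and above it for Anxa3, Anxa4, Anxa6 and Anxa11.

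Over 5 lists of annexin partners and pathway genes, 11 of 61 measured genes were higher, where 7.71% of all genes were, and 10 were lower, where 7.14% of all genes were. Among the 6 measured S100 genes whose proteins bind annexins, 2 were higher and 1 lower, too few calls to read against those shares, while 3 missed the threshold, and the median difference was -0.13. S100a10, which encodes p11, the partner of annexin A2, had 12.11, 12.09 and 11.19 in the basal arrays and 10.36, 10.87 and 10.78 in the non-basal arrays. Basal replicate 3 lay well below the other basal arrays, and the difference was 1.13 ± 0.28 (limma adjusted p = 0.0484). S100a11, a partner of annexin A1, had 13.61, 13.59 and 13.48 in the basal arrays, against 12.87, 13.05 and 13.10 in the non-basal arrays, a difference of 0.55 ± 0.086 (limma adjusted p = 0.0108). S100a1, which has been found with annexin A6 in muscle, was lower at -0.71 ± 0.12 (limma adjusted p = 0.0148). S100a6, a partner of annexins A2 and A11, had 10.14, 10.25 and 9.17 in basal and 9.39, 9.73 and 9.62 in non-basal arrays. Its fractions overlapped because basal replicate 3 was the lowest array of all, and the difference was 0.27 (adjusted p = 0.579), or 0.62 without that array (adjusted p = 0.0301). S100a4 and S100b had differences of -0.53 (adjusted p = 0.104) and -1.23 (adjusted p = 0.0825), and S100b had -1.63 without non-basal replicate 1 (adjusted p = 0.0106). With 1 array left out, S100a10 was called only without basal replicate 3 and had adjusted p of 0.109 to 0.173 in the other 5 fits. S100a11 was lost without basal replicate 1 (0.0551) or 2 (0.0576), and S100a1 without any of 4 arrays, basal 1 and 2 and non-basal 2 and 3 (0.0603 to 0.0761).

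Of 10 measured genes around the action of annexin A1, for formyl peptide receptors and arachidonic acid release, 1 was higher (7.71% of all genes) and 3 lower (7.14% of all genes), while 6 missed the threshold, and the median difference was -0.31. Ptgs1, the constitutive cyclooxygenase that turns arachidonic acid into prostaglandin precursors, had 12.47, 12.34 and 12.17 in basal and 9.80, 10.49 and 10.53 in non-basal arrays, a difference of 2.05 ± 0.21 (limma adjusted p = 0.00352). Ptgs2, the inducible cyclooxygenase, went the other way, with 12.44, 12.43 and 12.36 in basal and 13.31, 13.43 and 13.43 in non-basal arrays (-0.98 ± 0.067, limma adjusted p = 0.00197). Both cyclooxygenases thus separated the fractions without overlap, in opposite directions. Pla2g4a, the cytosolic phospholipase A2 that annexins A1 and A5 are known to inhibit, was lower at -1.33 ± 0.12 (limma adjusted p = 0.00259), and the secreted phospholipase gene Pla2g2a was lower at -3.35 ± 0.69 (limma adjusted p = 0.0261). The call of Pla2g2a was lost without basal array 1 or 2 or non-basal array 2 or 3, with adjusted p of 0.0957 to 0.117. Fpr1, the one formyl peptide receptor gene measured, had values of 4.45 to 4.75 in basal and 4.75 to 5.14 in non-basal arrays, and its mean lay at the percentile 9.62 of all gene means. Its difference was -0.25 (95% interval -0.59 to 0.085).

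In the plasminogen list 1 of 11 measured genes was higher, near the 7.71% of all genes, and 2 were lower (7.14% of all genes), while 8 missed the threshold, and the median difference was 0.027. Plaur, the receptor of urokinase, had 12.21, 12.21 and 11.79 in the basal and 10.75, 11.21 and 11.14 in the non-basal arrays, a difference of 1.04 ± 0.17 (limma adjusted p = 0.0127). Plat, which encodes tPA, was lower, with 10.70, 10.91 and 11.20 in basal and 11.72, 12.15 and 12.17 in non-basal arrays (-1.07 ± 0.17, limma adjusted p = 0.0124). The receptor of one plasminogen activator and the other activator itself were thus on opposite sides, and Plau, urokinase, had a difference of 0.027 (95% interval -0.31 to 0.36). Tfpi2, an inhibitor of plasmin and other serine proteases, had 6.61, 6.66 and 7.82 in the basal arrays and 10.09, 10.82 and 10.93 in the non-basal arrays, a difference of -3.59 ± 0.39 (limma adjusted p = 0.00389). Serpine2, an inhibitor of thrombin and plasminogen activators, had -0.41 (adjusted p = 0.0961). Plaur was lost without basal array 1 or 2 or non-basal array 3 (0.0583 to 0.0684), and Plat without these or non-basal array 2 (0.0537 to 0.0679).

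Of 15 measured genes of membrane repair and calcium-dependent annexin partners, 4 were higher (7.71% of all genes) and 1 lower (7.14% of all genes), while 10 missed the threshold, and the median difference was 0.26. The count of higher genes was 1 to 7 with 1 array left out, 9 with array weights and 9 without both basal replicate 3 and non-basal replicate 1. The count of lower genes was 1 or 2 with 1 array left out, 3 in those other settings, and 2 after quantile normalization, median centring or either filter on low means. The calpains Capn1 and Capn2, calcium-activated proteases that cleave repair proteins and annexins, were higher by 1.45 ± 0.096 (limma adjusted p = 0.00197) and 1.27 ± 0.22 (limma adjusted p = 0.0147). The Capn2 value is that of the brighter of 2 probe sets, and the mean of both differed by 0.91 (limma adjusted p = 0.0147). Capn1 had 10.49, 10.38 and 10.28 in basal and 8.89, 9.08 and 8.83 in non-basal arrays. Myof, the ferlin relative of dysferlin, was higher by 0.42 ± 0.080 (limma adjusted p = 0.0213). The dysferlin gene itself, Dysf, had a difference of -0.71 and missed the threshold (limma adjusted p = 0.0965). The synaptotagmin-like gene Sytl2, a Rab27 effector, was lower at -2.03 ± 0.14 (limma adjusted p = 0.00197). In the phosphatidylserine list 3 of 19 measured genes were higher (7.71% of all genes) and 3 lower (7.14% of all genes), while 13 missed the threshold, and the median difference was 0.010. The scramblase family gene Plscr2 was higher by 2.07 ± 0.20 (limma adjusted p = 0.00309) and the flippase Atp11a by 1.33 ± 0.12 (limma adjusted p = 0.00267). The flippase Atp8b1 was lower at -0.61 ± 0.087 (limma adjusted p = 0.00809), as was Pros1, the phosphatidylserine-binding protein S, at -0.78 ± 0.13 (limma adjusted p = 0.013). Capn2 and Pros1 were lost without basal array 1 or 2 or non-basal array 3 (0.0635 to 0.0774 for Capn2 and 0.0556 to 0.0705 for Pros1), and Myof without basal array 1 or non-basal array 2 or 3 (0.0752 to 0.0783).

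**Figure D4:**
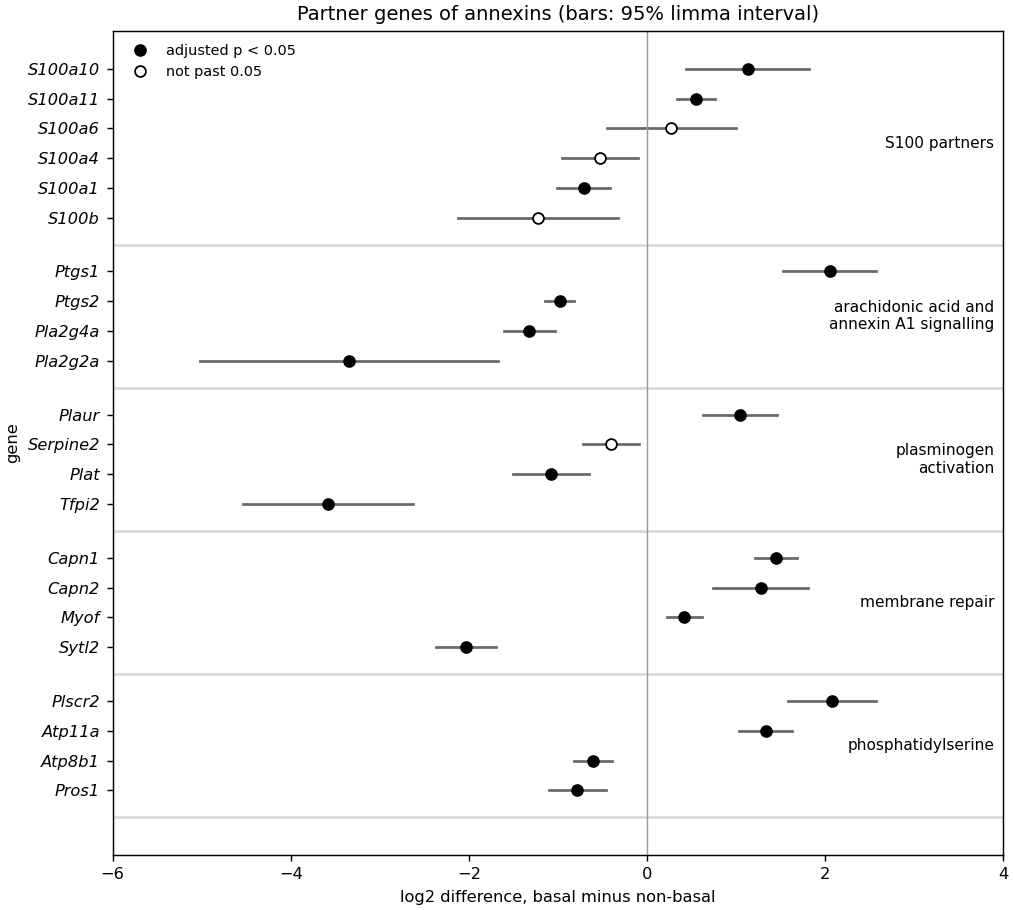
Log2 difference, basal minus non-basal, with its 95% limma interval, for the 6 measured S100 genes and the 4 genes with the smallest p of each other partner list. Filled points passed an adjusted p under 0.05, and every list holds genes on both sides of 0.

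The genes whose 6-array pattern lay nearest to that of the highest and the lowest annexin were found by the root mean square distance between profiles centred on their own means. Nearest to Anxa8 were Itga2, a collagen-binding integrin subunit, at a distance of 0.112 log2 units, Abcb1b, a drug efflux pump, at 0.134, Fxyd3, a sodium pump regulator, at 0.155, the basal keratin Krt15 at 0.167 and the ErbB ligand Nrg1 at 0.187. All 5 had differences of 2.89 to 3.32 and, like Anxa8, their lowest value in non-basal replicate 1. Nearest to Anxa6 were Edn3, which encodes endothelin 3, at 0.0479, Pln, the phospholamban of muscle, at 0.0851, the microRNA gene Mir667 at 0.0859, Fry at 0.0869 and the calcium channel gene Cacna1d at 0.087. Their differences were -1.03 to -0.89. Such likeness over 6 arrays in 2 groups is mostly likeness of the group difference. The low value in non-basal replicate 1 is shared in part because the genes were picked for nearness to Anxa8.

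The calls of several annexins were lost when 1 array was left out. Anxa8 was called in all 6 fits with 1 array left out. Anxa1 was lost without basal replicate 2, with an adjusted p just above 0.05, and Anxa11 without basal replicate 2 (0.0502) or non-basal replicate 3 (0.0557). Anxa6 was lost without basal replicate 1 (adjusted p = 0.0590), non-basal replicate 2 (just above 0.05) or non-basal replicate 3 (0.0630), and Anxa7 without basal replicate 1 (0.0617) or 2 (0.0625). Anxa5 was lost without the first (0.0870) or the second (0.0919) basal array and without non-basal replicate 3 (0.0705). Anxa2 was lost without basal replicate 1 (0.105), basal replicate 2 (0.108), non-basal replicate 2 (0.0616) or non-basal replicate 3 (0.0909), and Anxa3 without the same arrays (0.123, 0.133, 0.139 and 0.155 in that order). In the 4 fits in which called annexins were lost, 5.88% to 6.94% of all genes were called, against 14.9% with all 6 arrays. The share was 19.5% when basal replicate 3 was left out and 16.4% when non-basal replicate 1 was. No annexin of the 9 changed direction, and the differences themselves stayed between 0.36 and 3.28 for the 8 positive ones and between -1.13 and -0.83 for Anxa6. Without basal replicate 3 and non-basal replicate 1 together, the arrays that stood apart from their fractions, 8 annexins were higher and 1 was lower, while 25.4% of all genes were called. Leaving out arrays that stand apart narrows the spread within the fractions, so these counts are no independent support.

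**Figure D5:**
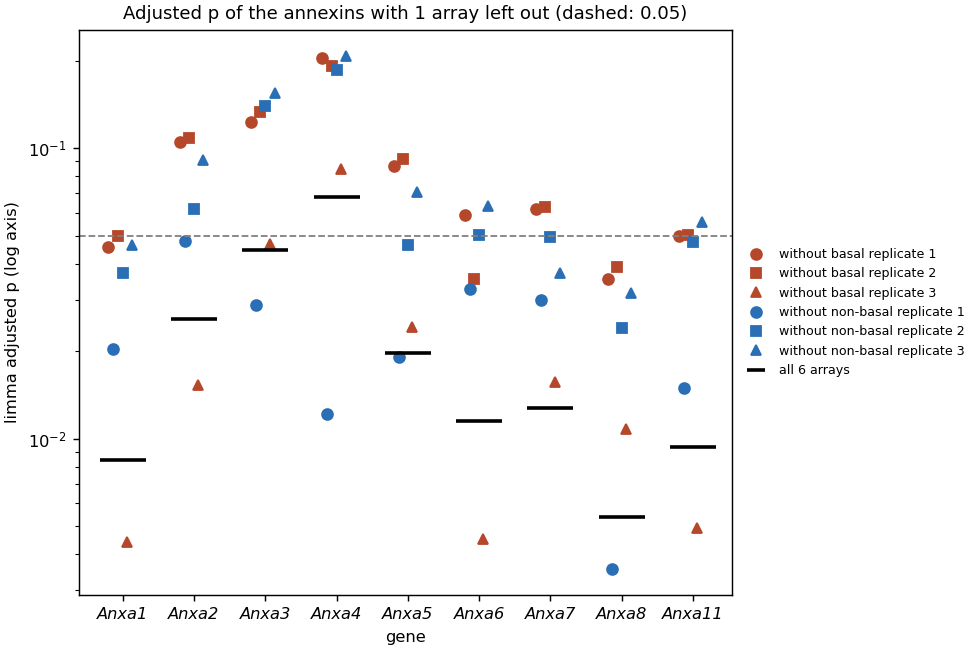
Limma adjusted p, on a log axis, of each annexin with all 6 arrays (bar) and with 1 array left out (points), with the threshold of 0.05 dashed. All points of Anxa8 lie below the line, whereas Anxa2 and Anxa3 each have 4 points above it.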

How the data were processed

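Total RNA of epididymal basal and non-basal cell fractions was measured on 6 arrays, 3 per fraction. The authors deposited log2 values. RMA and Affymetrix Expression Console are the tools that the submitters' processing notes name; their version and the probe set library are not given in the sources used here. RMA matches the distributions of the arrays, so a shift common to most genes would be removed. Depth has no meaning for these values, and the number of arrays limits the precision.

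Gene names came from the platform's annotation table, in which 18511 of 36685 probe sets carried 1 symbol, 575 several, and the others were unnamed and left out. Entrez identifiers were found in the RefSeq table of GRCr8 for 18394, and 0 symbols changed. Per gene the probe set with the highest mean was kept, giving 18166 genes. Differences were fitted with limma 3.58.1 in R 4.3.3 (lmFit, eBayes, no block, two-sided, 4 residual degrees of freedom), adjusted by Benjamini-Hochberg over all genes and called at an adjusted p under 0.05. The fit was tested on simulated independent arrays with known differences, a setting without arrays that stand apart from their fraction.

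The members, gene lists, named-gene rule and tests were chosen with earlier results of these data known. Named were the 10 annexins, other genes whose symbol starts with Anxa, all S100 partners, the 4 genes with the smallest p in each other partner list, and the 5 nearest profiles of 2 annexins. Beyond this rule Plau, Fpr1, Ngfr and Dysf were added once their values had been seen. Tried as alternatives were the replicate block, quantile normalization, median centring, filters at a mean of 5 or 7, array weights, averaging a gene's probe sets, a spread that follows intensity, fitted robustly, thresholds of 0.01 and 0.1, each array left out, and 2 arrays left out together. The labels give no pairing of arrays, so the replicate numbers were not taken as pairs. Same-numbered arrays of the 2 fractions had correlations of deviations of 0.0312, 0.0383 and 0.0278, which do not settle whether arrays were paired. Promoter windows came from RefSeq (GRCr8), and the build behind the array annotation is not given in the sources used here.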

Additional observations from a re-analysis of the deposited data

How the results depend on the processing

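The direction of each of the 9 annexin differences was the same under every alternative run. The median over the 9, 0.73, ranged from 0.62 to 0.85 with 1 array left out and from 0.70 to 0.74 otherwise. The 7 higher annexins became 3 with the replicate block and 3 at an adjusted p under 0.01, and ranged from 1 to 8 with 1 array left out. The 1 lower annexin became 0 at an adjusted p under 0.01 and was 0 or 1 with 1 array left out. With the replicate block, Anxa2, Anxa3, Anxa5 and Anxa7 had adjusted p of 0.0574, 0.0972, 0.0539 and 0.0573, and the partner genes S100a10 and Myof, called without the block, had 0.0818 and 0.0568. The within-fraction deviations of each array correlated best with those of the same-numbered array of the other fraction. These correlations were near 0, at 0.0312, 0.0383 and 0.0278. They are at most a weak hint from the data and not the design. Anxa3 also had 0.0595 after median centring. Anxa4 passed with only genes at a mean of at least 7 (0.0438), with array weights (0.00713), without non-basal replicate 1 (0.0121) and without that array and basal replicate 3 together (0.011). Anxa10, not called in any setting, turned to -0.062 after quantile normalization. The 11 higher partner genes became 17 with array weights, 20 without basal replicate 3 and non-basal replicate 1 together, and 4 at 0.01, and ranged from 4 to 15 with 1 array left out. The 10 lower ones became 19, 17 and 5 in the same settings, and ranged from 5 to 14. Over all genes, 1401 higher and 1297 lower became 2868 and 2323 with array weights, 2499 and 2124 without both arrays, and 491 and 556 at 0.01, and ranged from 509 to 2068 and from 542 to 1607 with 1 array left out. The cause of these changes was not tested. Among the partner genes that were called, Ptgs1, Ptgs2, Pla2g4a, Tfpi2, Capn1, Sytl2, Plscr2, Atp11a and Atp8b1 passed in all fits with 1 array left out. With 3 arrays per fraction an exact permutation test of a single value cannot go below 0.1.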
